A study of Mus musculus with 30 samples.

Results

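Invasive oral squamous cell carcinoma was compared with oral epithelial dysplasia in a mouse model of mouth cancer. The comparison takes 13 of the 30 RNA sequencing libraries of the series, chosen by the stage each label gives: 6 labelled invasive carcinoma (sample codes C03, C05, C06, C08, C09 and C12) and 7 labelled dysplasia (B01 to B07). The other 17 libraries are normal tissue (3), hyperplasia (8) and carcinoma in situ (6). The mice were male C57BL/6J, with no engineered allele named in the labels, and were 6 weeks old when treatment with 4-nitroquinoline 1-oxide (4NQO) in the drinking water began, at 100 ug/mL for 10 weeks. Both groups carry this same treatment text and the same tissue label, oral squamous cell carcinoma, and stage is the one label by which they were grouped. 4NQO is a water-soluble carcinogen whose DNA adducts resemble those of tobacco smoke, and dysplasia is thus a carcinogen-treated control here, not an untreated one. The labels do not say how long after treatment each lesion was taken, nor whether 2 libraries of a stage come from 1 animal, so each p-value here describes variation between libraries, part of which may be technical.

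Oral carcinogenesis passes from thickened epithelium through dysplasia, where maturation of the keratinocyte layers is disturbed, to carcinoma in situ and then to invasive carcinoma, which is defined by tumour cells crossing the basement membrane. Crossing it involves secreted proteases, the plasminogen activator system and a change in how basal cells attach to laminin. Invasive squamous tumours of the mouth commonly lose terminal differentiation, and neutrophils, macrophages and cytokines of the interleukin-1 and interleukin-17 families are well known in them.

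The dysplasia libraries held 19753677 to 24684124 counts and the invasive ones 18692589 to 28023098, so depth did not separate the groups. Of 55487 listed genes, 17638 passed the filter on low counts and were tested. The lining epithelium keratins Krt13 and Krt4 and the basal keratins Krt5 and Krt14 were abundant in every library, with Krt13 at 19303 to 31278 CPM (counts per 1e6 of the normalised library size) in dysplasia and 15673 to 24943 CPM in invasive carcinoma. Skeletal muscle transcripts were abundant as well: the summed level of 32 muscle markers was 37536 to 68169 CPM in dysplasia and 24016 to 57123 CPM in invasive carcinoma, lowest in C12. The 19 salivary gland markers ranged over 26 to 42524 CPM in dysplasia and 76.3 to 27400.0 CPM in invasive carcinoma, highest in B01 and C12. Mitochondrial transcripts took 5.95% to 7.98% of counts in dysplasia and 4.78% to 8.36% in invasive carcinoma. Each library is therefore a piece of tissue holding epithelium, stroma, muscle and at times gland, and in such bulk samples fewer cells of a type and less RNA per cell cannot be told apart. The sample codes give dysplasia the letter B and both carcinoma stages the letter C, and a difference that goes with the letter cannot be told apart from one that goes with the stage.

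Between dysplasia and invasive carcinoma, 3455 genes (19.6% of those tested) passed an adjusted p of 0.05 in edgeR's quasi-likelihood test, 1950 higher (11.1%) and 1505 lower (8.53%) in invasive carcinoma. The shares of 11.1% and 8.53% are the background for every count of list members below. Most differences were small: 297 genes (1.68%) were higher and 135 (0.765%) lower by at least 2-fold. Among genes at 5 CPM or more, the 12 largest increases included 4 neutrophil-attracting chemokine genes (Cxcl1, Cxcl2, Cxcl3 and Ppbp), 2 secreted metalloproteinases (Mmp10 and Mmp13) and the acute-phase gene Saa3, and the 12 largest decreases included genes of cornified and oral suprabasal keratinocytes and cytochromes P450. In 313 tested genes (1.77%) every invasive library lay above every dysplasia library, and in 206 (1.17%) every one lay below. The number of calls depended on single invasive libraries. Leaving out C09 alone left 1570 called genes, leaving out C06 alone left 2064, and leaving out C09 and C12 together, an omission chosen after the data were seen, left 295, of which 291 were among the 3455. All 3444 of the called genes that could still be tested kept their direction without those 2 libraries, and 37 of the 101 called genes given with values in the text kept their call. Calls lost under this omission are not all named below. They include those of Csf3, Ptgs2, Mmp13, Timp1, Plau, Plaur, Csn1s1 and Cyp2a5. Of the 47 gene lists with at least 5 tested and 3 called members, 25 held no called gene in edgeR's test without them, and 45 kept the sign of their median log2 fold change.

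**Figure D1:**
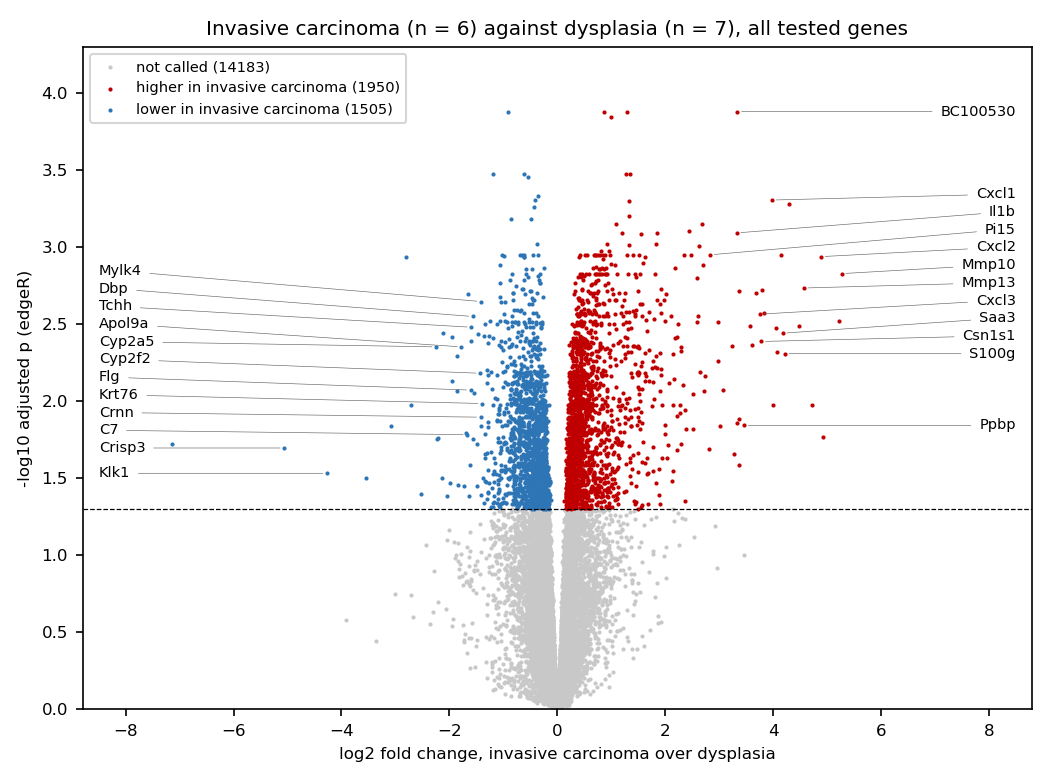
Each point is 1 of 17638 tested genes. The horizontal axis is the log2 fold change of invasive carcinoma (6 libraries) over dysplasia (7 libraries) and the vertical axis is -log10 of the edgeR adjusted p, with the dashed line at 0.05. Labelled genes are the 12 largest increases and 12 largest decreases at 5 CPM or more, predicted genes and pseudogenes left out. Among the right-hand labels are 4 chemokine genes and 2 metalloproteinase genes, and BC100530 has the smallest adjusted p among the labelled genes.

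The genes for chemokines that recruit neutrophils rose most. Of 9 tested genes for neutrophil chemokines, colony-stimulating factors and their receptors, 7 rose and 0 fell, with a median log2 fold change of 3.46, against -0.014 over all tested genes. Cxcl1, a ligand of the neutrophil receptor CXCR2, measured from 0.400 to 1.27 CPM in dysplasia (median 0.491) and from 2.72 to 23.5 CPM in invasive carcinoma (median 9.34). The groups did not overlap, and C12, C09 and C06 were highest (log2 fold change 3.98 ± 0.60 SE, adjusted p = 4.94e-04). Its call was kept when C09 and C12 were both left out (3.11, adjusted p = 0.0115).

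Cxcl2, which encodes another CXCR2 ligand, held 50 counts over the 7 dysplasia libraries together and 1336 over the 6 invasive ones. Its level ran from 0 to 1 CPM in dysplasia (median 0.197) and from 2.38 to 28.8 CPM in invasive carcinoma (median 6.04), with no overlap (log2 fold change 4.89 ± 0.83 SE, adjusted p = 0.00115). The size depended on single libraries, with a log2 fold change of 4.16 without C09 and 5.54 without B01. Cxcl3, a gene of the same chemokine cluster, ran from 0.0893 to 1.62 CPM in dysplasia (median 0.464) and from 2.28 to 22.1 CPM in invasive carcinoma (median 4.09), again with no overlap (log2 fold change 3.76 ± 0.76 SE, adjusted p = 0.00272; 3.06 without C09, adjusted p = 0.0148). Ppbp, the platelet basic protein precursor of further CXCR2 ligands, ran from 0.0999 to 3.71 CPM in dysplasia (median 1.20) and from 0.438 to 44.9 CPM in invasive carcinoma (median 6.92; log2 fold change 3.46 ± 0.95 SE, adjusted p = 0.0144). The groups overlapped, with C03 and C08, at 0.438 and 0.640 CPM, below the dysplasia median. The call of Ppbp was lost without C09 (adjusted p = 0.0757), and its log2 fold change was 4.09 without B01. Csf3, the granulocyte colony-stimulating factor gene, had a median of 0 CPM in dysplasia and 0.952 CPM in invasive carcinoma (log2 fold change 3.62 ± 0.80 SE, adjusted p = 0.00431).

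The promoters of the 3 CXCR2 ligand genes that rose together without overlap are shown, since they share a run of letters. The lines give the 250 bases before the RefSeq start site, 5′ to 3′ on the plus strand of GRCm38.p6, at chr5:90890995-90891244 for Cxcl1, chr5:90903649-90903898 for Cxcl2 and chr5:90785851-90786100 for Cxcl3. Capitals mark matches to GGGNNNNNCC, the loose form of the NF-kappaB recognition sequence, on either strand, and overlapping matches on opposite strands run together.
Cxcl1: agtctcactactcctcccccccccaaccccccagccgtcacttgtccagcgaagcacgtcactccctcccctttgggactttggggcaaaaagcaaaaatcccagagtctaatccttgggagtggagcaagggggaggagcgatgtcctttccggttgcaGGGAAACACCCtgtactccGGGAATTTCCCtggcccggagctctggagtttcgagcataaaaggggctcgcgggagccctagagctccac
Cxcl2: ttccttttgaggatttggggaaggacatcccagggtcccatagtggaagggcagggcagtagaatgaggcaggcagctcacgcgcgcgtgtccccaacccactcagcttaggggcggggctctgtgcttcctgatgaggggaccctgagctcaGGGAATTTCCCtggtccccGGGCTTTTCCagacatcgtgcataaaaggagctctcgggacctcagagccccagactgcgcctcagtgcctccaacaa
Cxcl3: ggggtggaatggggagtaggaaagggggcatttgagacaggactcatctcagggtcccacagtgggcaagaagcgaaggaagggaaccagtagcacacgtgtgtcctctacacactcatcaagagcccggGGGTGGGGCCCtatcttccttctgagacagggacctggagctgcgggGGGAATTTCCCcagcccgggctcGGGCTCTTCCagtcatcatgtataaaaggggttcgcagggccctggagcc
Each of the 3 holds a match whose plus-strand letters are GGGAATTTCC, starting 71, 97 and 73 bases before the start of Cxcl1, Cxcl2 and Cxcl3. The loose pattern is common: 45.4% of 27025 promoters of this length hold it, as do 60% of the 12450 tested genes with a promoter in the table, 59.6% of the 1400 among genes that rose and 61.2% of the 1118 among genes that fell. Of the 10 promoters available for the 12 largest increases, these 3 alone hold the loose pattern, and that of the CXCR2 ligand gene Ppbp does not. How common the exact letters GGGAATTTCC are was not counted. The match is a description of the letters and not evidence of binding.

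Members of the interleukin-1 family and of a mixed list of interleukin-17 axis and acute cytokine genes rose together with these chemokines. Values of the interleukin-17 genes themselves are not given here. In the interleukin-1 and interleukin-36 family 7 of 18 tested genes rose and 0 fell (median log2 fold change 0.43). In the interleukin-17 axis with other acute cytokines 14 of 23 rose and 0 fell (median 1.27). Il1b, the secreted interleukin-1 beta, measured from 1.60 to 4.89 CPM in dysplasia (median 2.53) and from 10 to 80 CPM in invasive carcinoma (median 14.7). Every invasive library exceeded every dysplasia library, with C09 the highest (log2 fold change 3.33 ± 0.53 SE, adjusted p = 8.08e-04; 2.69 without C09). Nlrp3, the sensor of the inflammasome that leads to cleavage of interleukin-1 beta, ran from 0.268 to 1.02 CPM in dysplasia (median 0.491) and from 1.46 to 5.62 CPM in invasive carcinoma (median 2.48), also without overlap (log2 fold change 2.34 ± 0.41 SE, adjusted p = 0.00112).

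Il23a, the subunit of interleukin-23 that sustains interleukin-17-producing lymphocytes, had a median of 0.232 CPM in dysplasia and 1.91 CPM in invasive carcinoma (log2 fold change 2.62 ± 0.44 SE, adjusted p = 9.84e-04). Only C05, at 0.371 CPM, stayed within the dysplasia range. Osm, an interleukin-6 family cytokine made by myeloid cells, had a median of 0.134 CPM in dysplasia and 0.989 CPM in invasive carcinoma with no overlap (log2 fold change 3.36 ± 0.65 SE, adjusted p = 0.00191; 2.54 without C09). Tnfaip3, an inhibitor of NF-kappaB signalling that NF-kappaB itself induces, rose less, with a median of 6.69 CPM in dysplasia and 16.5 CPM in invasive carcinoma (log2 fold change 1.20 ± 0.20 SE, adjusted p = 8.08e-04). The groups overlapped, with C05 at 8.12 CPM and B01 at 10.6 CPM. Without C09 and C12 the interleukin-17 list still held 6 called members, all higher, and a median of 0.99.

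Acute-phase and epithelial defence genes moved the same way: 4 of 19 tested injury keratins and alarmins rose and 0 fell. Over all tested genes 11.1% rose and 8.53% fell, which applies to the prostaglandin list below as well. Saa3, a serum amyloid A protein made at sites of inflammation, measured from 0.578 to 5.65 CPM in dysplasia (median 1.47) and from 8.18 to 83.8 CPM in invasive carcinoma (median 27), with no overlap (log2 fold change 4.18 ± 0.88 SE, adjusted p = 0.00362). Lcn2, the siderophore-binding protein lipocalin 2 made by neutrophils and inflamed epithelium, measured from 4.82 to 22.7 CPM in dysplasia (median 11) and from 23.8 to 113 CPM in invasive carcinoma (median 58.4), with C06 highest and no overlap (log2 fold change 2.29 ± 0.50 SE, adjusted p = 0.00444). The 2 others that rose were Defb14, a beta-defensin, and Krt17, a keratin of wounded epithelium. In the prostaglandin and leukotriene pathway 5 of 21 genes rose and 2 fell. Ptgs2, the inducible cyclooxygenase, had a median of 4.95 CPM in dysplasia and 28 CPM in invasive carcinoma (log2 fold change 2.32 ± 0.56 SE, adjusted p = 0.00785), with C05 and C08 below B06. Ptges, the prostaglandin E synthase acting after it, had a median of 39.1 CPM in dysplasia and 82.4 CPM in invasive carcinoma (log2 fold change 0.86 ± 0.17 SE, adjusted p = 0.00235).

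Myeloid cell markers were higher in invasive carcinoma. Of 18 tested neutrophil markers 9 rose and 1 (G0s2) fell, with a median log2 fold change of 1.40. The summed level of the 21 listed was 37.4 to 295 CPM in dysplasia and 58.7 to 430.3 CPM in invasive carcinoma, with none at 0 in every library of a group. On this sum the groups overlapped, with B01, B02 and B07 above every invasive library except C09 and C12. On the mean log2 CPM of the tested markers B01 was the one dysplasia library within the invasive range. Of 23 macrophage and monocyte markers 9 rose and 0 fell (median 0.42). Their summed level, 524 to 649.8 CPM in dysplasia and 669.8 to 1278 CPM in invasive carcinoma, did not overlap.

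Among these, Itgam, the integrin alpha M chain of myeloid cells, had a median of 1.90 CPM in dysplasia and 4.64 CPM in invasive carcinoma (log2 fold change 1.03 ± 0.23 SE, adjusted p = 0.00434). Msr1, a macrophage scavenger receptor, had a median of 1.60 CPM in dysplasia and 3.42 CPM in invasive carcinoma, with no overlap (log2 fold change 1.12 ± 0.29 SE, adjusted p = 0.0107). All 6 tested monocyte chemokine genes rose (median 1.63). Ccl2, the main ligand of the monocyte receptor CCR2, had a median of 1.92 CPM in dysplasia and 7.24 CPM in invasive carcinoma (log2 fold change 1.56 ± 0.31 SE, adjusted p = 0.00234). Ccl3, a chemokine that attracts monocytes and other leukocytes, had a median of 0.134 CPM in dysplasia and 1.02 CPM in invasive carcinoma (log2 fold change 2.98 ± 0.62 SE, adjusted p = 0.00306). The part of myeloid cell content in the cytokine values above was not tested.

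**Figure D2:**
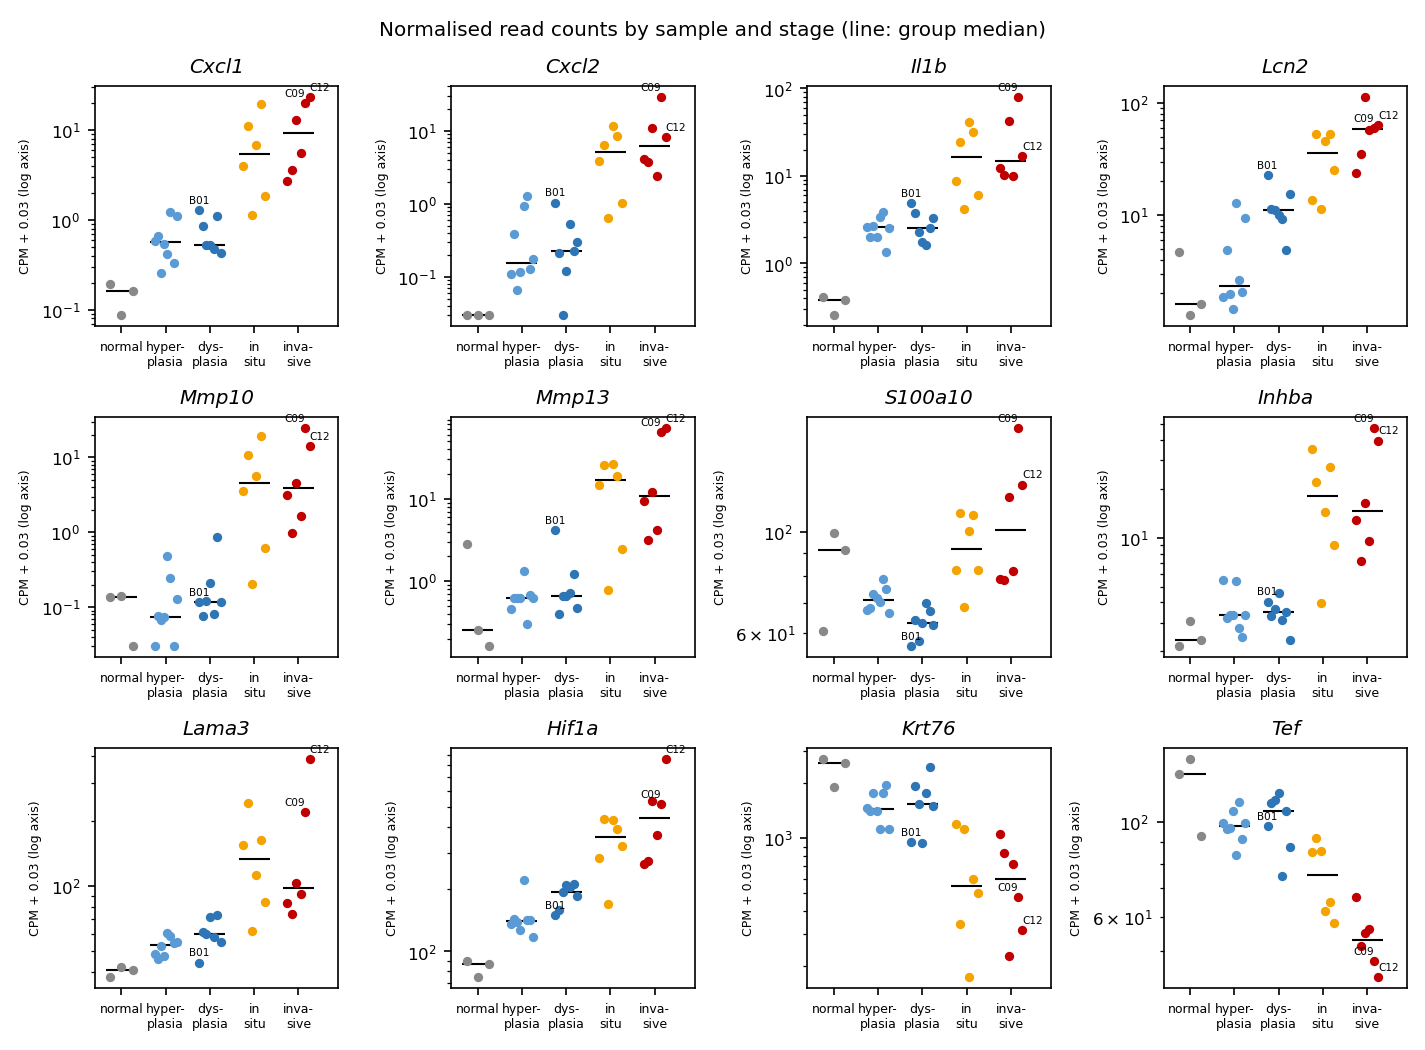
Each panel plots 1 gene, with the 5 stages on the horizontal axis and CPM plus 0.03 on a logarithmic vertical axis. Points are libraries, lines are group medians, and B01, C09 and C12 are labelled where they fall. Cxcl1, Cxcl2, Il1b, Lcn2, Mmp10, S100a10, Inhba, Lama3, Hif1a and Tef show no overlap between dysplasia and invasive carcinoma, whereas Mmp13 and Krt76 overlap, and carcinoma in situ spans both ranges for several genes.

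Genes for secreted metalloproteinases rose, while Mmp2 and 3 of 6 inhibitor genes fell. Of 17 tested metalloproteinase genes 6 rose and 2 fell (median log2 fold change 0.42). The 5 with the largest increases, Mmp13, Mmp12, Mmp1b, Mmp3 and Mmp10, lie in a cluster on chromosome 9, between 7272514 (start of Mmp13) and 7510240 (end of Mmp10) in GRCm38. Mmp10, or stromelysin 2, which degrades matrix proteins and activates other metalloproteinases, held 33 counts over all dysplasia libraries and 1128 over all invasive ones. It measured from 0.0464 to 0.829 CPM in dysplasia (median 0.0890) and from 0.955 to 24.6 CPM in invasive carcinoma (median 3.81), with no overlap (log2 fold change 5.27 ± 0.95 SE, adjusted p = 0.00148). Without C09 the log2 fold change was 4.52 and without B06, the highest dysplasia library, 6.41.

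Mmp13, the interstitial collagenase 3, measured from 0.371 to 4.11 CPM in dysplasia (median 0.625) and from 3.13 to 72.4 CPM in invasive carcinoma (median 10.7). C05, the lowest invasive library, fell inside the dysplasia range set by B01 (log2 fold change 4.57 ± 0.85 SE, adjusted p = 0.00184; 5.37 without B01). The call of Mmp13 was lost without C09 and C12 (2.63, adjusted p = 0.0606). Mmp3, stromelysin 1, had a median of 4.89 CPM in dysplasia and 21.8 CPM in invasive carcinoma (log2 fold change 2.62 ± 0.53 SE, adjusted p = 0.00282; 1.98 without C09), with C08 and C12 below B06. Mmp12, the macrophage elastase, measured from 1.65 to 2.93 CPM in dysplasia (median 1.86) and from 4.56 to 10.7 CPM in invasive carcinoma (median 7.13), with no overlap (log2 fold change 1.83 ± 0.30 SE, adjusted p = 9.52e-04), and kept its call without C09 and C12 (1.72, adjusted p = 0.0149). Mmp1b, an interstitial collagenase gene with a closely related neighbour between which reads may be split, held 1 count over all dysplasia libraries and 42 over all invasive ones. It was called higher (adjusted p = 0.0105) but fell below the filter on low counts without C09 or without C12.

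Of the gelatinases, Mmp2, made mainly by stromal cells, fell without overlap, from 89.1 to 71.1 CPM in the medians (log2 fold change -0.39 ± 0.087 SE, adjusted p = 0.00460). Mmp9, made by neutrophils and tumour cells, had a median of 2.83 CPM in dysplasia and 9.32 CPM in invasive carcinoma and missed the threshold (log2 fold change 1.45 ± 0.54 SE, adjusted p = 0.0587). It passed without B01, the highest dysplasia library (2.16, adjusted p = 0.00683), as it did without C03, C05 or C08, with a salivary score in the fit, in DESeq2 (adjusted p = 0.0325) and in limma-voom (adjusted p = 0.0172). Mmp14, the membrane-bound activator of pro-MMP2, was close to the threshold (log2 fold change 0.27 ± 0.097 SE, adjusted p = 0.0492), and the omission of any of B01, B02, B03, B04, B06, B07, C06, C09 and C12 ended its call. Mmp11, stromelysin 3 of the stroma, was as close on the lower side (log2 fold change -0.41 ± 0.14 SE, adjusted p = 0.0417), and lost its call without any of B01, B02, B03, B04, B05, C08, C09 and C12.

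The promoters of Mmp10, Mmp13 and Mmp3 were chosen for display because each holds the letters of an AP-1 recognition sequence close to the start site, and Mmp12, of the same cluster, has no match in its window. The lines give 250 bases on the plus strand of GRCm38.p6 ahead of the RefSeq start, 5′ to 3′, at chr9:7502092-7502341, chr9:7272264-7272513 and chr9:7445572-7445821. Capitals mark TGANTCA, a palindromic pattern that reads as a match on both strands.
Mmp10: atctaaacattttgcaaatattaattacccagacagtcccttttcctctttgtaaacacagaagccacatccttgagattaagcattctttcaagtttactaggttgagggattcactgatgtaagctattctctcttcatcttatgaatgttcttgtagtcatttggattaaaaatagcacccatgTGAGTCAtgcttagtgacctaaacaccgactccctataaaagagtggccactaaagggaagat
Mmp13: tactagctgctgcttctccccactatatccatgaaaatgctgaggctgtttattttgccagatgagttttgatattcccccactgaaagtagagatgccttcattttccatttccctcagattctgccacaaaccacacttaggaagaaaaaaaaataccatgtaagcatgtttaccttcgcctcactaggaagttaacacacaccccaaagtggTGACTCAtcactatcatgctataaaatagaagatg
Mmp3: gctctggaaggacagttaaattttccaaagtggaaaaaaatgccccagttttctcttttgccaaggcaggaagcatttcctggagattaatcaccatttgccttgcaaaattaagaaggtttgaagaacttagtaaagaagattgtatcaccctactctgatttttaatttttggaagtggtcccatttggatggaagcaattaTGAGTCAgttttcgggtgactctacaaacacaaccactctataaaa
The match starts 63, 35 and 46 bases before the start of Mmp10, Mmp13 and Mmp3. TGANTCA occurs in 6.87% of 27025 promoters of this length, in 5.17% of the 12450 of tested genes, in 6.57% of the 1400 promoters of genes that rose and in 5.9% of the 1118 of genes that fell. Since these 3 genes were chosen for their match, it is shown as a description only. Binding to these promoters was not measured. The AP-1 and immediate early genes had 6 of 14 higher and 0 lower (median 0.47). Fos measured from 12.9 to 21.4 CPM in dysplasia (median 15.5) and from 14.2 to 128 CPM in invasive carcinoma (median 38.6), with C08 within the dysplasia range (log2 fold change 1.57 ± 0.32 SE, adjusted p = 0.00282).

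Metalloproteinase inhibitor genes went in both directions, 1 of 6 higher and 3 lower. Timp1, a secreted inhibitor that inflammation induces, had a median of 1.43 CPM in dysplasia and 5.89 CPM in invasive carcinoma (log2 fold change 1.92 ± 0.45 SE, adjusted p = 0.00618). Reck, a membrane-anchored inhibitor, measured from 13.5 to 21.4 CPM in dysplasia (median 15.9) and from 4.18 to 14 CPM in invasive carcinoma (median 7.86), with 5 of the 6 invasive libraries below every dysplasia library (log2 fold change -1.04 ± 0.23 SE, adjusted p = 0.00444). Timp3, which binds to the matrix, had a median of 112 CPM in dysplasia and 71.9 CPM in invasive carcinoma (log2 fold change -0.59 ± 0.15 SE, adjusted p = 0.0105). Timp2 had a median of 125 CPM in dysplasia and 96 CPM in invasive carcinoma (log2 fold change -0.39 ± 0.11 SE, adjusted p = 0.0161).

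The plasminogen activator system, which turns plasminogen into the protease plasmin at the cell surface, rose in 5 of 10 tested genes and fell in 0 (median log2 fold change 0.66). Plau, the activator urokinase, had a median of 41.3 CPM in dysplasia and 73.6 CPM in invasive carcinoma (log2 fold change 0.92 ± 0.21 SE, adjusted p = 0.00454), and its receptor gene Plaur had a median of 1.60 CPM in dysplasia and 6.33 CPM in invasive carcinoma (log2 fold change 1.78 ± 0.41 SE, adjusted p = 0.00546). The groups overlapped for both genes: C05 lay below B03 for Plau, and C03, C05 and C08 lay below B01 for Plaur. The 2 genes of the surface tetramer that binds plasminogen showed narrower spreads. S100a10 measured from 56.1 to 70 CPM in dysplasia (median 63.2) and from 78.5 to 169 CPM in invasive carcinoma (median 101), with no overlap (log2 fold change 0.79 ± 0.14 SE, adjusted p = 0.00139). Anxa2 measured from 411 to 459.5 CPM in dysplasia (median 443) and from 525 to 982 CPM in invasive carcinoma (median 642), also with no overlap (log2 fold change 0.70 ± 0.13 SE, adjusted p = 0.00170).

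Genes that attach basal keratinocytes to the basement membrane rose. Of 19 hemidesmosome, integrin and laminin genes 7 rose and 0 fell (median 0.25). Lama3, the alpha 3 chain of the main laminin under squamous epithelium, measured from 44.2 to 73.5 CPM in dysplasia (median 59.7) and from 74 to 389 CPM in invasive carcinoma (median 97.8), with no overlap (log2 fold change 1.41 ± 0.31 SE, adjusted p = 0.00441). Itga6, the integrin alpha 6 chain that binds this laminin, had a median of 179 CPM in dysplasia and 247 CPM in invasive carcinoma (log2 fold change 0.85 ± 0.20 SE, adjusted p = 0.00678).

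Basal keratinocyte genes as a group showed 5 of 10 higher and 0 lower (median 0.48), and their summed level was 6050.0 to 10840.0 CPM in dysplasia and 8754 to 21597 CPM in invasive carcinoma. Cdh3, P-cadherin, measured from 44.1 to 55.9 CPM in dysplasia (median 48.2) and from 52.9 to 155 CPM in invasive carcinoma (median 89.7), with 5 of the 6 invasive libraries above every dysplasia library (log2 fold change 0.91 ± 0.18 SE, adjusted p = 0.00191). Krt14 had a median of 3747 CPM in dysplasia and 5978 CPM in invasive carcinoma (log2 fold change 0.83 ± 0.22 SE, adjusted p = 0.0110) and its partner Krt5 had a median of 2948 CPM in dysplasia and 3874 CPM in invasive carcinoma (log2 fold change 0.58 ± 0.15 SE, adjusted p = 0.0113). With C09 and C12 left out, the laminin and integrin list held 0 called genes of 19 (median 0.12), and the basal list 1 of 10 (median 0.16).

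Genes of oral suprabasal keratinocytes fell, 8 of 14 tested, and 1 rose (median log2 fold change -0.76). Krt76, a keratin of the hard palate and other differentiated oral mucosa, measured from 937 to 2463 CPM in dysplasia (median 1544) and from 226 to 1056 CPM in invasive carcinoma (median 597), with 5 of the 6 invasive libraries below every dysplasia library (log2 fold change -1.39 ± 0.36 SE, adjusted p = 0.0104). Crnn, cornulin, a marker of late differentiation in the oesophagus and mouth, had a median of 182 CPM in dysplasia and 54.6 CPM in invasive carcinoma (log2 fold change -1.42 ± 0.38 SE, adjusted p = 0.0127). The exception was Mal, a membrane raft protein, at a median of 18 CPM in dysplasia and 36.1 CPM in invasive carcinoma (log2 fold change 1.63 ± 0.38 SE, adjusted p = 0.00655), with 0.89 without C09. Krt10, of the epidermal type of suprabasal cell, had a median of 492 CPM in dysplasia and 275 CPM in invasive carcinoma (log2 fold change -0.87 ± 0.22 SE, adjusted p = 0.00829).

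Of 32 cornified envelope genes 5 fell and 2 rose (median -0.33), where 8.53% of all tested genes were lower and 11.1% higher. These shares also apply to the desmosome and Sprr2 lists below. Flg, filaggrin, which bundles keratin filaments, measured from 83.3 to 207 CPM in dysplasia (median 141) and from 11.8 to 86.8 CPM in invasive carcinoma (median 40.6), lowest in C06 and highest in C03 among the invasive libraries (log2 fold change -1.61 ± 0.40 SE, adjusted p = 0.00848). Tchh, trichohyalin, of the filiform papillae of the tongue and of hair follicles, measured from 1024 to 2933 CPM in dysplasia (median 2345) and from 365 to 1303 CPM in invasive carcinoma (median 644) (log2 fold change -1.59 ± 0.34 SE, adjusted p = 0.00331). Csta1, a cystatin of the cornified envelope, rose, with a median of 93.1 CPM in dysplasia and 236 CPM in invasive carcinoma (log2 fold change 1.32 ± 0.27 SE, adjusted p = 0.00263). Dlx3, a homeobox factor of terminal differentiation, had a median of 63.5 CPM in dysplasia and 37.7 CPM in invasive carcinoma (log2 fold change -0.70 ± 0.18 SE, adjusted p = 0.00952). Within the desmosome list, where 1 rose and 3 of 15 fell, the one that rose was Dsg3, a desmoglein of the lower layers, with a median of 413 CPM in dysplasia and 651 CPM in invasive carcinoma (log2 fold change 0.67 ± 0.17 SE, adjusted p = 0.0106). Of 11 tested Sprr2 genes, small proline-rich envelope proteins, 2 rose, but these are near-identical copies between which reads cannot be assigned with certainty. No member of the oral suprabasal list passed the threshold in edgeR's test without C09 and C12, where 11 had an unadjusted p under 0.05 (median -0.66).

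**Figure D3:**
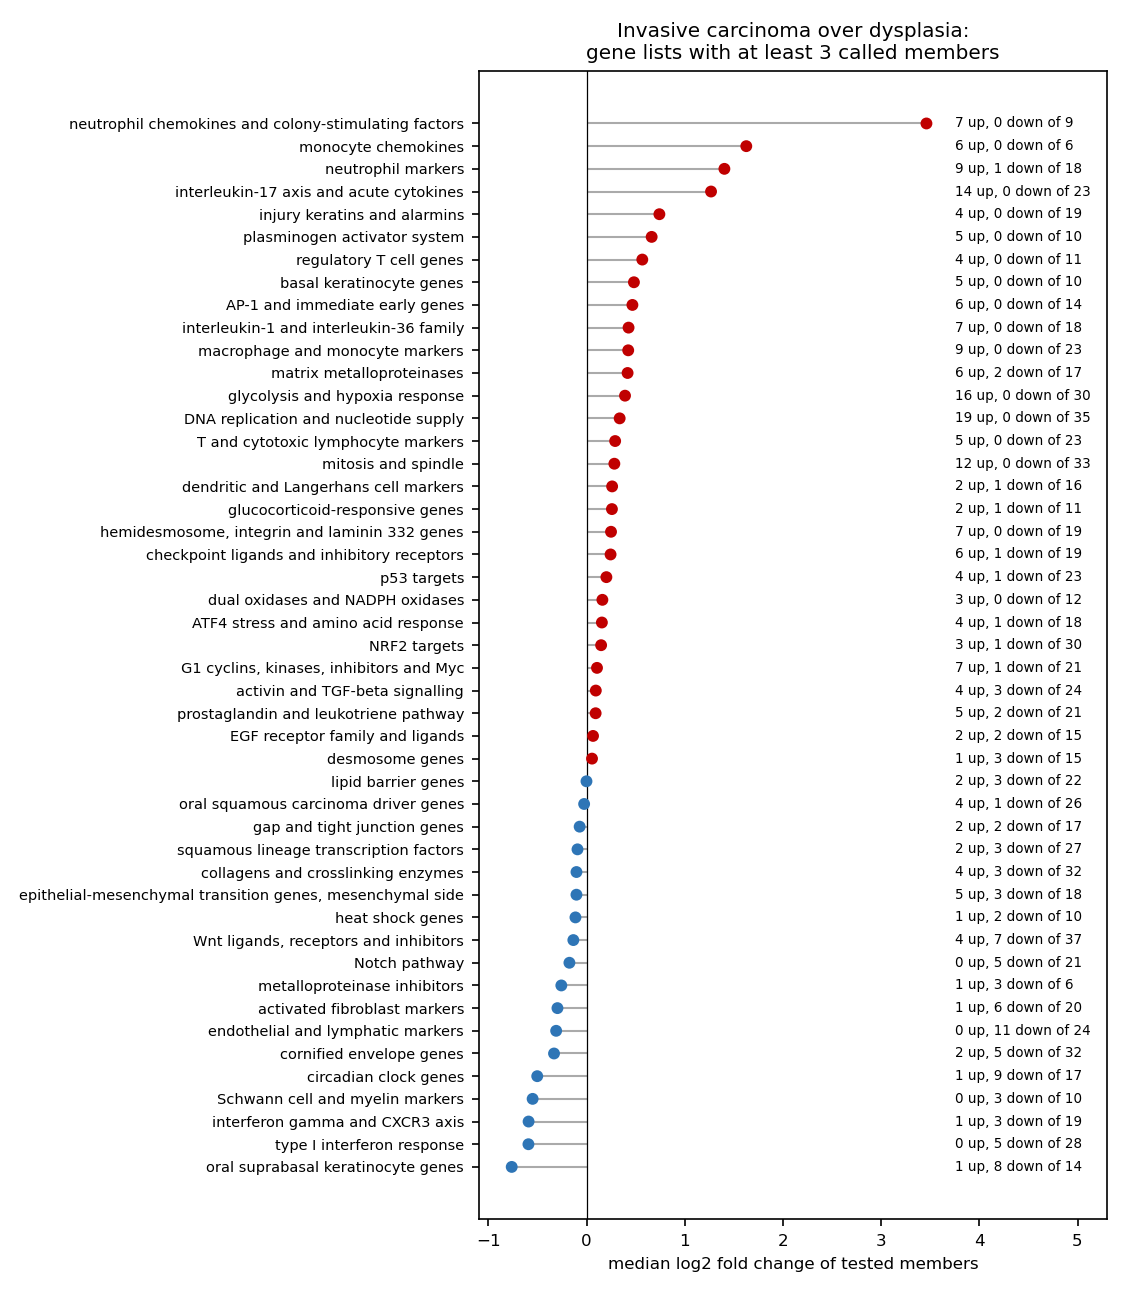
The 47 gene lists with at least 5 tested and 3 called members, ordered by the median log2 fold change of invasive carcinoma over dysplasia (horizontal axis), with the number of members that rose and fell printed at the right. 29 lists have a median above 0, led by neutrophil chemokines at 3.46, and the lowest is the oral suprabasal list at -0.76.

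Genes of the mesenchymal side of epithelial-mesenchymal transition did not move as a group: 5 of 18 rose and 3 fell (median -0.10). Snai2, a zinc finger repressor also made by basal keratinocytes, measured from 18.7 to 33.9 CPM in dysplasia (median 26.7) and from 37.8 to 78.5 CPM in invasive carcinoma (median 50.6), with no overlap (log2 fold change 0.97 ± 0.19 SE, adjusted p = 0.00220). Pdpn, podoplanin, found on invading squamous cells and lymphatic vessels, had a median of 9.28 CPM in dysplasia and 18 CPM in invasive carcinoma (log2 fold change 0.81 ± 0.14 SE, adjusted p = 0.00106). Tgfbi, a matrix protein induced by TGF-beta, had a median of 62.6 CPM in dysplasia and 102 CPM in invasive carcinoma (log2 fold change 1.08 ± 0.25 SE, adjusted p = 0.00533). Tnc and Cd44 were the other members that rose.

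In the opposite direction, Snai3 had a median of 5.89 CPM in dysplasia and 2.53 CPM in invasive carcinoma (log2 fold change -1.04 ± 0.21 SE, adjusted p = 0.00228), and Fn1 also fell. Cdh2, N-cadherin, fell from 0.999 to 0.683 CPM in the medians (log2 fold change -0.85 ± 0.25 SE, adjusted p = 0.0196), and lost its call without C12 (adjusted p = 0.0521). Vim, vimentin, had a median of 207 CPM in dysplasia and 183 CPM in invasive carcinoma and did not pass the test (log2 fold change -0.16 ± 0.12 SE, adjusted p = 0.346). Cdh1, E-cadherin, had a median of 298 CPM in dysplasia and 319 CPM in invasive carcinoma (log2 fold change 0.14 ± 0.089 SE, adjusted p = 0.279). Of 14 epithelial-side genes, 1 fell (Ovol1) and 0 rose.

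Inhba encodes the subunit of activin A, a TGF-beta family ligand. It measured from 2.31 to 4.56 CPM in dysplasia (median 3.47) and from 7.21 to 47.6 CPM in invasive carcinoma (median 14.6), with no overlap (log2 fold change 2.67 ± 0.42 SE, adjusted p = 7.11e-04), and without C09 and C12 its call was kept (1.72, adjusted p = 0.0233). In the activin and TGF-beta list 4 of 24 rose and 3 fell, the latter all receptor genes (Tgfbr3, Acvr2a and Acvr2b). Of 15 EGF receptor family and ligand genes 2 rose and 2 fell (Btc and Erbb4). The shares over all tested genes, 11.1% higher and 8.53% lower, apply to both lists. Hbegf, the heparin-binding ligand, had a median of 21.9 CPM in dysplasia and 59.2 CPM in invasive carcinoma (log2 fold change 1.28 ± 0.27 SE, adjusted p = 0.00305), and Areg, amphiregulin, had a median of 3.66 CPM in dysplasia and 13.7 CPM in invasive carcinoma (log2 fold change 1.82 ± 0.41 SE, adjusted p = 0.00506). Egfr itself had a median of 84.6 CPM in dysplasia and 77.1 CPM in invasive carcinoma and missed the threshold (log2 fold change -0.084 ± 0.070 SE, adjusted p = 0.404).

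Cell cycle genes rose by small amounts. Of 35 DNA replication and nucleotide supply genes 19 rose and 0 fell (median 0.34). Of 33 mitosis and spindle genes 12 rose and 0 fell (median 0.28). Tk1, thymidine kinase of S phase, had a median of 15.5 CPM in dysplasia and 25.9 CPM in invasive carcinoma (log2 fold change 0.66 ± 0.15 SE, adjusted p = 0.00547). Birc5, survivin of the chromosomal passenger complex, had a median of 15.1 CPM in dysplasia and 25.3 CPM in invasive carcinoma (log2 fold change 0.67 ± 0.14 SE, adjusted p = 0.00306). Cdk1, the mitotic kinase, measured from 21.9 to 25.1 CPM in dysplasia (median 23.1) and from 25.8 to 44.8 CPM in invasive carcinoma (median 36.2), with no overlap (log2 fold change 0.61 ± 0.14 SE, adjusted p = 0.00444). Every called member of both lists lost its call without C09 and C12, with medians of 0.27 and 0.23.

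Among G1 regulators, Cdkn2a, the locus of the p16 and Arf tumour suppressors that is often deleted in human oral cancer, measured from 1.57 to 3.88 CPM in dysplasia (median 3.08) and from 4.72 to 8.09 CPM in invasive carcinoma (median 6.99), with no overlap (log2 fold change 1.22 ± 0.31 SE, adjusted p = 0.00890). Its neighbour Cdkn2b, the p15 inhibitor, had a median of 10.3 CPM in dysplasia and 13.7 CPM in invasive carcinoma, also with no overlap (log2 fold change 0.50 ± 0.10 SE, adjusted p = 0.00251). Myc had a median of 49.5 CPM in dysplasia and 63.5 CPM in invasive carcinoma (log2 fold change 0.38 ± 0.11 SE, adjusted p = 0.0174). Ccnd2, cyclin D2, fell, with a median of 109 CPM in dysplasia and 75 CPM in invasive carcinoma (log2 fold change -0.47 ± 0.094 SE, adjusted p = 0.00235). Against 11.1% higher and 8.53% lower among all tested genes, 4 of 23 p53 targets rose and 1 fell. The largest change among them was in Pmaip1, the pro-apoptotic protein Noxa, at a median of 3.06 CPM in dysplasia and 8.44 CPM in invasive carcinoma with no overlap (log2 fold change 1.49 ± 0.29 SE, adjusted p = 0.00191). Trp53 had a median of 56.5 CPM in dysplasia and 60.2 CPM in invasive carcinoma (log2 fold change 0.16 ± 0.074 SE, adjusted p = 0.117). Of 26 genes recurrently altered in oral squamous carcinoma 4 rose (Cdkn2a, Myc, Casp8 and Ajuba) and 1 fell (Notch2), against 11.1% and 8.53% of all tested genes, and nothing is read from so few.

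Glucose transport and hypoxia response genes rose, 16 of 30 tested, and 0 fell (median 0.39). Hif1a, the oxygen-regulated transcription factor, measured from 150.5 to 213 CPM in dysplasia (median 194) and from 266 to 857 CPM in invasive carcinoma (median 442), with no overlap and C12 highest (log2 fold change 1.32 ± 0.22 SE, adjusted p = 9.73e-04). Slc2a1, the glucose transporter GLUT1, measured from 80.4 to 121 CPM in dysplasia (median 104) and from 157 to 786 CPM in invasive carcinoma (median 228), with no overlap (log2 fold change 1.59 ± 0.28 SE, adjusted p = 0.00126). Egln3, a prolyl hydroxylase that HIF induces, had a median of 121 CPM in dysplasia and 183 CPM in invasive carcinoma with no overlap (log2 fold change 0.72 ± 0.14 SE, adjusted p = 0.00219). Car12, a membrane carbonic anhydrase, had a median of 146 CPM in dysplasia and 232 CPM in invasive carcinoma (log2 fold change 0.73 ± 0.14 SE, adjusted p = 0.00148). Without C09 and C12 4 of 30 members passed the threshold (median 0.26). Of 30 targets of the oxidant-responsive factor NRF2 3 rose and 1 fell, a share near the background. The first of them by p was Txn1, thioredoxin, with a median of 278 CPM in dysplasia and 431 CPM in invasive carcinoma and no overlap (log2 fold change 0.70 ± 0.15 SE, adjusted p = 0.00302). None of 29 nuclear oxidative phosphorylation genes passed the threshold in edgeR's test (2 at an unadjusted p under 0.05), DESeq2 or limma-voom.

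T cell and checkpoint genes rose in part. Of 23 T and cytotoxic lymphocyte markers 5 rose and 0 fell (median 0.29), and their summed level was 31.1 to 48.7 CPM in dysplasia and 37.1 to 57.8 CPM in invasive carcinoma. Over all tested genes 11.1% were higher and 8.53% lower. Trbc2, a constant segment of the T cell receptor beta chain, had a median of 1.78 CPM in dysplasia and 6.08 CPM in invasive carcinoma (log2 fold change 1.58 ± 0.37 SE, adjusted p = 0.00553). Among invasive libraries it was highest in C09 and C12 (12.4 and 9.79 CPM), where the mean log2 CPM of the list was 0.14 and -0.058. In C03, with the highest list mean (0.78), Trbc2 was 2.37 CPM. In C05, with the lowest list mean (-0.073), it was 1.96 CPM. C06 and C08 lay between on both. Of 11 regulatory T cell genes 4 rose. Icos, a costimulatory receptor among them, had a median of 1.39 CPM in dysplasia and 2.75 CPM in invasive carcinoma (log2 fold change 1.02 ± 0.28 SE, adjusted p = 0.0134) and lost its call without C06 (adjusted p = 0.0501). When C09 and C12 were left out edgeR called 0 of the T and cytotoxic markers, 8 having an unadjusted p under 0.05 (median 0.62).

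Of 19 checkpoint ligand and inhibitory receptor genes 6 rose and 1 fell (Cd200). Cd80, a ligand of CD28 and CTLA-4, had a median of 2.05 CPM in dysplasia and 4.82 CPM in invasive carcinoma (log2 fold change 1.20 ± 0.24 SE, adjusted p = 0.00240). Cd276, which encodes B7-H3, measured from 8.09 to 9.99 CPM in dysplasia (median 9.52) and from 11.9 to 21.3 CPM in invasive carcinoma (median 14.1), with no overlap (log2 fold change 0.68 ± 0.14 SE, adjusted p = 0.00257). Cd47, the ligand that restrains phagocytosis through SIRP-alpha, had a median of 42.8 CPM in dysplasia and 50.1 CPM in invasive carcinoma with no overlap (log2 fold change 0.32 ± 0.068 SE, adjusted p = 0.00319). Cd86, Havcr2 and Pdcd1 were the others called higher. Cd274, which encodes PD-L1, measured from 6.16 to 30.9 CPM in dysplasia (median 8.77) and from 5.01 to 13.6 CPM in invasive carcinoma (median 11) and did not pass the test (log2 fold change -0.13 ± 0.28 SE, adjusted p = 0.764), with B02 highest of all. Apart from B02 the dysplasia libraries lay at 6.16 to 10.1 CPM, and apart from C12 the invasive ones lay at 9.7 to 13.6 CPM.

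Interferon response genes were lower in the median, with overlapping groups. Of 28 type I interferon genes 5 fell and 0 rose, against 8.53% lower and 11.1% higher among all tested genes. Of the 28, 1 had a log2 fold change above 0 (median -0.59). By the mean log2 CPM of this list C03 (3.06) and C05 (3.27) lay above B03, B04, B05 and B06. B02 was highest (4.11), and C06, C09 and C12 lay below every dysplasia library. Of 19 genes of the interferon gamma and CXCR3 axis 3 fell and 1 rose (median -0.59). Isg15, a ubiquitin-like interferon-induced protein, measured from 5.80 to 43.5 CPM in dysplasia (median 14.9) and from 3.22 to 12.2 CPM in invasive carcinoma (median 6.83), with B02 highest (log2 fold change -1.18 ± 0.37 SE, adjusted p = 0.0286). Dhx58, an RNA sensor of the RIG-I family, had a median of 7.03 CPM in dysplasia and 4.68 CPM in invasive carcinoma (log2 fold change -0.75 ± 0.23 SE, adjusted p = 0.0265). Both lost their call without any of B02, C06, C09 and C12, with adjusted p up to 0.112 and 0.0834. Without C09 and C12 edgeR called 0 genes of both lists, 2 of the first and 2 of the second having an unadjusted p under 0.05 (medians -0.34 and -0.32). No MHC class I or peptide loading gene of 20 tested was called in edgeR's test, where 1 had an unadjusted p under 0.05. DESeq2 also called 0 of them and limma-voom called 1.

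**Figure D4:**
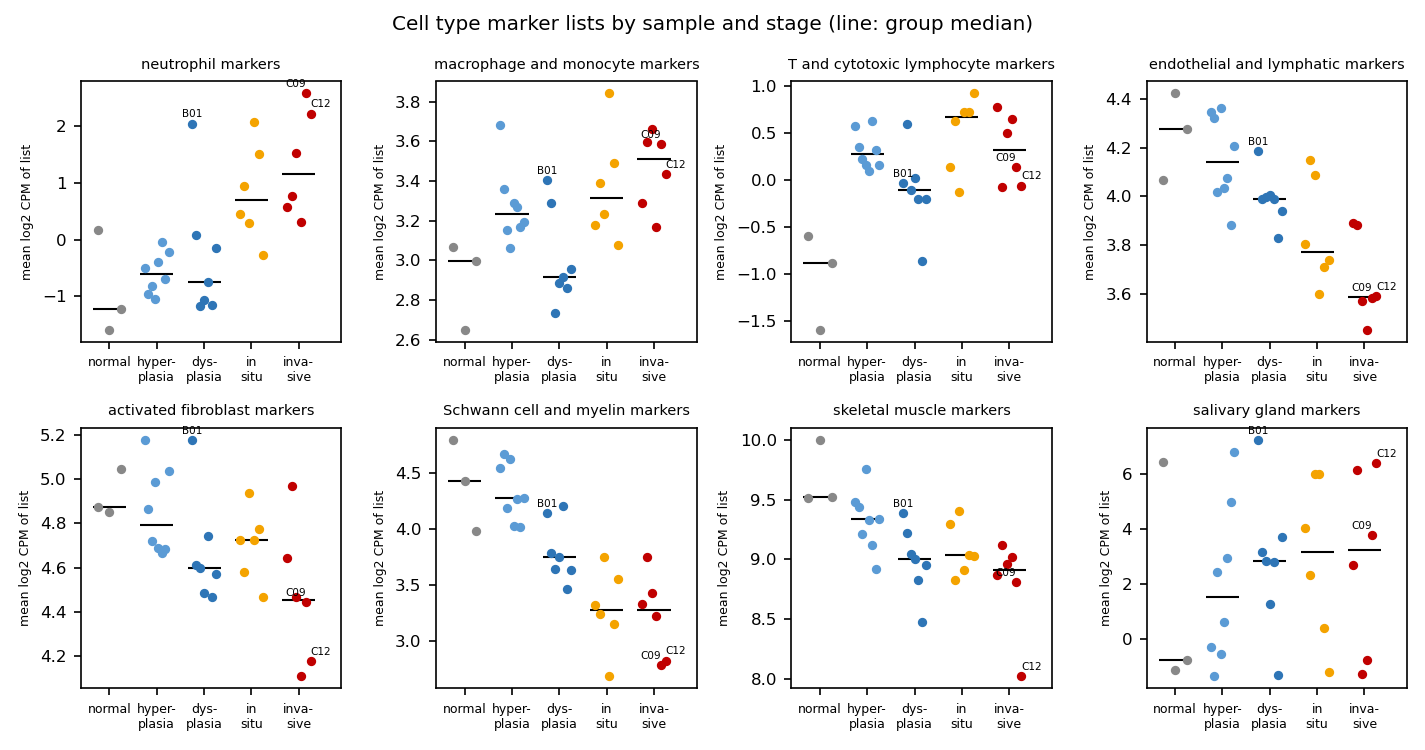
Mean log2 CPM of the genes of 8 cell type marker lists (vertical axes) in every library of the 5 stages (horizontal axes), with lines at group medians. B01, C09 and C12 are labelled. Macrophage summed levels do not overlap between dysplasia and invasive carcinoma although these mean log2 scores do, the endothelial scores of 4 invasive libraries lie below every dysplasia library, and C12 has the lowest muscle score.

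Vessel and stromal genes fell. Of 24 endothelial and lymphatic markers 11 fell and 0 rose (median -0.31), with a summed level of 506 to 710.1 CPM in dysplasia and 396 to 580.0 CPM in invasive carcinoma. Cdh5, the vascular cadherin, had a median of 67.9 CPM in dysplasia and 39.7 CPM in invasive carcinoma (log2 fold change -0.63 ± 0.15 SE, adjusted p = 0.00696). Tie1, an endothelial receptor kinase, had a median of 39.7 CPM in dysplasia and 25.2 CPM in invasive carcinoma (log2 fold change -0.56 ± 0.13 SE, adjusted p = 0.00608). Vwf, von Willebrand factor, had a median of 39.2 CPM in dysplasia and 25.1 CPM in invasive carcinoma (log2 fold change -0.59 ± 0.14 SE, adjusted p = 0.00678), and Aplnr, the apelin receptor, had a median of 15.4 CPM in dysplasia and 6.68 CPM in invasive carcinoma (log2 fold change -1.01 ± 0.24 SE, adjusted p = 0.00643). Without C09 and C12 edgeR called 0 of the 24, 10 having an unadjusted p under 0.05 (median -0.29).

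Of 20 fibroblast markers 6 fell and 1 rose (Grem1; median -0.30). Pdgfra, the PDGF receptor of fibroblasts, had a median of 35 CPM in dysplasia and 23.3 CPM in invasive carcinoma (log2 fold change -0.62 ± 0.15 SE, adjusted p = 0.00589). Dcn, the proteoglycan decorin, measured from 547 to 694 CPM in dysplasia (median 579) and from 279 to 578 CPM in invasive carcinoma (median 413), with 5 of the 6 invasive libraries below every dysplasia library (log2 fold change -0.56 ± 0.13 SE, adjusted p = 0.00678). Leaving out C09 and C12 left 0 fibroblast markers called in edgeR's test and 5 at an unadjusted p under 0.05 (median -0.16). Among 31 tested skeletal muscle markers 2 fell and 0 rose, a share below the 8.53% lower among all tested genes. Among 10 Schwann cell and myelin markers 3 fell. Mylk4, a myosin light chain kinase of striated muscle, was among the 12 largest decreases, with a median of 78.3 CPM in dysplasia and 32.3 CPM in invasive carcinoma (log2 fold change -1.42 ± 0.28 SE, adjusted p = 0.00225). The part of muscle and gland content in these values was tested only as a covariate: with a muscle score in the fit 3120 genes were called, and with a salivary score 3652. Of the 3455 genes called without a score, 2839 were kept with the muscle score and 3426 with the salivary score.

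Of 21 Notch pathway genes 5 fell and 0 rose. Of 37 Wnt ligands, receptors and inhibitors 7 fell and 4 rose, where 8.53% of all tested genes were lower and 11.1% higher. Maml3, a Notch coactivator, measured from 21.8 to 28.2 CPM in dysplasia (median 24.1) and from 15.3 to 20.1 CPM in invasive carcinoma (median 16.9), with no overlap (log2 fold change -0.48 ± 0.087 SE, adjusted p = 0.00139). Fzd7, a Wnt receptor, measured from 42.6 to 50.7 CPM in dysplasia (median 45.9) and from 22.5 to 38.4 CPM in invasive carcinoma (median 31.5), also with no overlap (log2 fold change -0.57 ± 0.11 SE, adjusted p = 0.00148). Both kept their call without C09 and C12.

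Of 17 circadian clock genes 9 fell and 1 rose (median -0.50), and 8 had a log2 fold change above 0. Tef, a PAR leucine zipper factor of clock output, measured from 75 to 117 CPM in dysplasia (median 106) and from 43.3 to 66.9 CPM in invasive carcinoma (median 53.1), with no overlap (log2 fold change -0.92 ± 0.12 SE, adjusted p = 1.31e-04). Nr1d2, the nuclear receptor REV-ERB beta, measured from 61.2 to 82.8 CPM in dysplasia (median 77.3) and from 40.2 to 55.1 CPM in invasive carcinoma (median 49.2), with no overlap (log2 fold change -0.61 ± 0.11 SE, adjusted p = 0.00115), and Bhlhe41, the repressor DEC2, had a median of 8.04 CPM in dysplasia and 5.14 CPM in invasive carcinoma with no overlap (log2 fold change -0.81 ± 0.16 SE, adjusted p = 0.00200). Dbp, a factor related to Tef, had a median of 12.3 CPM in dysplasia and 3.48 CPM in invasive carcinoma (log2 fold change -1.56 ± 0.32 SE, adjusted p = 0.00282). Nfil3, which represses the sites that Tef and Dbp activate, rose, at from 10.3 to 20.9 CPM in dysplasia (median 13.4) and from 22.3 to 30.7 CPM in invasive carcinoma (median 29.6), with no overlap (log2 fold change 0.96 ± 0.16 SE, adjusted p = 0.00106). The labels used here give no time of day for tissue collection, and stage and collection time cannot be told apart. Without C09 and C12 4 members were lower and 1 higher.

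Other large changes fell outside these groups. BC100530, a stefin-type protease inhibitor gene with near-identical neighbours, measured from 2.53 to 7.77 CPM in dysplasia (median 4.60) and from 22.6 to 145 CPM in invasive carcinoma (median 31.6), with no overlap (log2 fold change 3.34 ± 0.42 SE, adjusted p = 1.31e-04; 2.68 without C12). Pi15, a secreted peptidase inhibitor, measured from 2.54 to 5.42 CPM in dysplasia (median 3.66) and from 7.96 to 61.4 CPM in invasive carcinoma (median 15.1), with no overlap (log2 fold change 2.83 ± 0.47 SE, adjusted p = 0.00112). Csn1s1, an alpha casein of milk, had a median of 0.715 CPM in dysplasia and 13.1 CPM in invasive carcinoma (log2 fold change 3.78 ± 0.80 SE, adjusted p = 0.00410), with 4.84 without B02 and 2.83 without C12. S100g, the calcium-binding protein calbindin D9k, rested on C09, which had 31.6 CPM against an invasive median of 0.623, and its log2 fold change went from 4.22 to 1.01 without C09, adjusted p = 0.249.

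Among decreases, Cyp2a5, a xenobiotic-metabolising cytochrome P450, measured from 5.76 to 26.2 CPM in dysplasia (median 13) and from 0.533 to 9.51 CPM in invasive carcinoma (median 2.01) (log2 fold change -2.25 ± 0.50 SE, adjusted p = 0.00444; -3.08 without C03). Its call was lost without C09 and C12 (-2.03, adjusted p = 0.0652). Cyp2f2, a further cytochrome P450, had a median of 127 CPM in dysplasia and 37.5 CPM in invasive carcinoma (log2 fold change -1.43 ± 0.34 SE, adjusted p = 0.00659). C7, a terminal complement component, measured from 3.93 to 8.69 CPM in dysplasia (median 6.03) and from 0.331 to 3.86 CPM in invasive carcinoma (median 1.48), with no overlap (log2 fold change -1.67 ± 0.47 SE, adjusted p = 0.0165). Apol9a, an interferon-inducible apolipoprotein L gene with a close copy, had a median of 4.34 CPM in dysplasia and 1.41 CPM in invasive carcinoma (log2 fold change -1.78 ± 0.39 SE, adjusted p = 0.00444). The salivary genes Crisp3 and Klk1 had the lowest fold changes, -5.06 and -4.27, but both were set by B05, at 36.6 and 118 CPM against dysplasia medians of 0.186 and 0.276. Without B05 they were -2.22 without B05, adjusted p = 0.206 and -0.096 without B05, adjusted p = 0.951. Crisp3 also lost its call without C09, and Klk1, which has many kallikrein paralogs, without C06, C08 or C09.

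No gene was called between invasive carcinoma and carcinoma in situ. With 6 libraries each, 0 of 17638 genes passed the threshold in edgeR's test, the smallest adjusted p being 0.434, and 1259 genes (7.14%) had an unadjusted p under 0.05. DESeq2 and limma-voom called 0 as well. In simulated data of this design the same test gave back 50.7% of 1.5-fold, 64.2% of 2-fold and 98.5% of 4-fold changes. The simulation gave each gene the same spread at every stage. Recovery for genes that vary more among carcinoma libraries was not simulated. Leaving out C07 led to a call for Tppp (log2 fold change 0.64, adjusted p = 0.0230), and leaving out C03 to a call for Cyp2a5 (-2.86, adjusted p = 0.0259), both named because they were the only such calls among single omissions. Several genes that led the comparison with dysplasia spread widely in carcinoma in situ. Mmp10 ran from 0.175 to 19.2 CPM there (median 4.52), Cxcl1 from 1.09 to 19.6 (median 5.37) and Inhba from 3.93 to 35.2 (median 18.2). Saa3 was numerically higher in carcinoma in situ (median 41.4 CPM) than in invasive carcinoma (median 27 CPM), as was Cdkn2a (median 11.2 against 6.99 CPM), without passing the test. Some medians were lowest in invasive carcinoma among these 3 stages, such as those of Tef (106, 75.2 and 53.1 CPM from dysplasia to invasive carcinoma) and Cyp2a5 (13, 10.9 and 2.01 CPM), again without a call between the carcinoma stages.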

How the data were processed

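RNA was measured in 30 mouse tissue samples; 13 enter the main comparison. Per the labels' protocols, RNA came from an AllPrep DNA/RNA kit and libraries from a TruSeq stranded mRNA kit. Per the submitters' processing notes, the tools named are cutadapt 2.4 and STAR 2.7.2a, with genome build GRCm38. The deposited table holds raw read counts per gene made by the authors. The counting tool, its strand setting and its annotation are not given in the sources used here, so overlapping antisense genes could not be separated. Of 55487 gene identifiers, 55227 (99.5%) matched GENCODE M21, which gave symbols and positions. Promoters are from RefSeq (GRCm38.p6).

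Counts were TMM-normalised and fitted over all 30 samples and 5 stages with edgeR 4.0.16 (quasi-likelihood, R 4.3.3) after its filter on low counts. P-values were Benjamini-Hochberg adjusted over all tested genes, and called means an adjusted p under 0.05. CPM are counts scaled by the normalised library size. Samples were grouped by stage in their labels, and 2 comparisons were made. Simulated counts with known changes gave back 52.2% of 1.5-fold, 71.6% of 2-fold and 97% of 4-fold changes for invasive carcinoma against dysplasia, with 3.92% false calls, over 17424 genes. Each simulated gene had the same spread at every stage, so these rates do not cover genes that vary more among carcinoma libraries. Alternatives were DESeq2 1.42.0, limma 3.58.1 (voom with sample weights), other scaling factors, no filter, only the 2 groups, muscle and salivary scores as covariates, a replicate block, a minimum fold, a stricter threshold and each library left out; omissions of several libraries were chosen after the data were seen.

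The rule for named genes took the 12 largest increases and decreases among called genes that averaged 5 CPM or more in 1 of the groups (predicted genes, pseudogenes and receptor or antibody segments left out), up to 4 called members with the smallest adjusted p of each of 67 gene lists, and members of the checkpoint, driver, transition, metalloproteinase and plasminogen lists. Genes in the text are from the top of that order; members given by name only complete a count. Some genes of that order are not reported here. The comparison and the lists were chosen with earlier results of these data known.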

Additional observations from a re-analysis of the deposited data

Results flagged for a closer look

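In groups of 6 or 7 libraries the highest or lowest value was set against the next one by Dixon's test. Of 214 group values checked over the named genes 21 stood apart, and chance alone flags about 1 in 20. Library B01 accounted for 8 of them. It was the highest dysplasia library for Mmp12 (2.93 CPM), Mmp9 (14.3 CPM), Plaur (6.46 CPM) and Mmp1b (0.0437 CPM, 1 count), and the lowest for the keratinocyte genes Krt5 (1904 CPM), Tchh (1024 CPM), Dsg3 (274 CPM) and for Egfr (61.7 CPM). B06 stood apart for Ptgs2 (20.1 CPM, highest), Mmp10 (0.829 CPM, highest) and Cdh5 (48.4 CPM, lowest). B02 stood apart for Csn1s1 (6.64 CPM, highest), Cd274 (30.9 CPM, highest) and Plau (33.5 CPM, lowest). Among invasive libraries, C12 was lowest for Cdh2 (0.331 CPM) and Cd274 (5.01 CPM) and highest for Cdh1 (412 CPM) and Egln3 (311 CPM). C09 was highest for S100g (31.6 CPM), C03 highest for Cyp2f2 (103 CPM), and C05 lowest for Il23a (0.371 CPM).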

How the results depend on the processing

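Against the 3455 genes called between invasive carcinoma and dysplasia (1950 higher, 1505 lower), an adjusted p under 0.01 left 986 (650 and 336), a minimum fold of 1.5 left 43 (41 and 2) and no filter on low counts left 2161 (1223 and 938). Fitting only the groups compared gave 2318 calls (1393 higher and 925 lower), of which 2207 were among the 3455. Leaving out 1 library gave 1570 to 4605 calls, 881 to 2472 higher and 689 to 2133 lower. Without C09 and C12 there were 295 (185 and 110). Against carcinoma in situ, leaving out 1 library gave 0 to 1 calls. DESeq2 called 3933 genes and limma-voom 4886, and 3454 and 3455 of the main calls kept their sign. Among named genes called in the main fit or in the alternative, Klk1 alone changed sign, to 0.034 with DESeq2. Sign changes of genes called in neither were not counted. Of 67 lists, 66 kept the sign of their median under each of DESeq2 and both other scalings, 64 with limma-voom, 62 with a muscle score, 62 to 66 without 1 library, 61 without C09 and C12, 60 without B01 and C12 and 54 with the replicate block. With replicate numbers as a block 8 genes were called (2 higher, 6 lower). Whether equal numbers pair the samples is unknown. Deviations correlated at 0.17, -0.075 and 0.32 over genes for the 3 shared numbers, and pairs of unlike number were not correlated for comparison. The block cannot use C09 and C12, whose numbers no other library has. Whether samples of 1 stage share an animal is unknown, and intervals cover the spread of these libraries only. Genes under about 1 CPM rest on few counts.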

Other observations

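Of 32 collagen and crosslinking genes 4 rose and 3 fell, near the 11.1% higher and 8.53% lower among all tested genes. P4ha3 and Plod2, which modify collagen chains, and the chain genes Col12a1 and Col18a1 were higher, and Col4a5, Col6a1 and Col14a1 were lower. The largest of these log2 fold changes were 1.24 for Col12a1 (adjusted p = 0.0389) and -0.90 for Col14a1 (adjusted p = 0.0323). In the list of lipid barrier genes 2 of 22 rose and 3 fell. The same shares over all tested genes apply to this list and to those below. Of 26 cholesterol and fatty acid synthesis genes 2 rose, and of 10 heat shock genes 1 rose and 2 fell. None of 11 tested mitochondrially encoded genes and none of 6 erythroid markers passed the threshold in edgeR's test, with 0 and 1 at an unadjusted p under 0.05. All members of both lists had a log2 fold change below 0, with medians of -0.27 and -0.73. Of 12 dual oxidase and NADPH oxidase genes 3 rose and 0 fell (median 0.16), and of 10 squamous kallikreins 1 rose and 0 fell (median 0.45, 8 of 10 above 0). Of 5 tested gasdermin genes, the pore-forming proteins of pyroptosis, 0 were called and 1 had an unadjusted p under 0.05. DESeq2 and limma-voom called 0 members of the mitochondrial, erythroid and gasdermin lists.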
